A study of Rattus norvegicus with 4 samples.

Results

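The probes described here measured 10 genes of the growth cone and the neuronal cytoskeleton, Gap43, Marcks, Marcksl1, Basp1, Stmn2, Map2, Mapt, Dcx, Tubb3 and Nefl. The genes were listed with earlier results of these data known, and their probes are all gene spots that carried one of these gene names on the array. This gave 16 of the 41012 gene probes (34 spots on each array), with 4 probes for Marcks, 3 for Map2, 2 for Mapt and 1 for each other gene. The study compared rat cortical neurons infected with a lentivirus carrying an shRNA against Cmtr1 (shCM1) with neurons infected with a control shRNA virus (shCTL). Both groups were primary cultures from cortices of Sprague Dawley embryos of both sexes (E18.5), infected on day 2 in vitro and harvested on day 7. Each group held 2 single-colour Agilent arrays, from 2 independent experiments, and replicate 1 of both groups lay on slide 1 and replicate 2 of both on slide 2. The arrays held only these 2 groups, and the shRNA sequences were not used here. An effect of lower Cmtr1 and an effect of the shRNA elsewhere therefore cannot be told apart.

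CMTR1 adds a methyl group to the nucleotide that follows the cap of an mRNA. A growing neurite ends in a growth cone, where an actin network under the membrane meets microtubules arriving from the shaft. GAP-43, MARCKS, MARCKS-like 1 and BASP1 are acylated proteins on the inner face of that membrane, where they bind acidic phospholipids and calmodulin and are targets of protein kinase C. Stathmin 2 destabilises microtubules, while MAP2 in dendrites, tau (the product of Mapt) in axons and doublecortin in young neurons bind and stabilise them. Class III beta-tubulin, encoded by Tubb3, is a neuronal subunit of the microtubule itself, and Nefl encodes the light chain of neurofilaments.

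The probes are 60-base oligonucleotides, and several read parts of the mRNA that encode the working parts of these proteins. The sequences below are those of most of the probes that the results turn on, since probes of 1 gene did not always give the same difference. They are written 5′ to 3′ as the scanner files give them. Whole probes are printed only where the codons of a known protein feature could be read, and otherwise the first 30 bases. Capitals mark a run of lysine codons in Marcksl1, the first ATG in Basp1, and the lysine, any, glycine and serine codons of a microtubule-binding repeat in Map2. The number in each name is the position in the transcript at which the files place the probe.
Gap43 probe at 1402: gcaaatgtgccaattagcgtaacttaaggc
Marcks probe at 1162: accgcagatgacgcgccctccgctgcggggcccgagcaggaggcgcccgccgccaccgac
Marcks probe at 1979: tcatagtcttaggagttcatctaaaccata
Marcks probe at 2506: gaatgtaacgttgcttacaaacattgctat
Marcks probe at 3540: ttgaaagagtaaacttgatcctgagtttct
Marcksl1 probe at 440: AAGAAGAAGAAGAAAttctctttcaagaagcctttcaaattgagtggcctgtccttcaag
Basp1 probe at 187, from its first ATG: ATGggaagcaagctgagcaagaagaagaag
Map2 probe at 5188: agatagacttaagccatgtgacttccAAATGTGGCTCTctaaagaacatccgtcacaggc
Mapt probe at 4835: taggtctgtggctttatgagccttcaaact
Tubb3 probe at 1500: cttaccttcctaccagctcttcagggcacc

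The Marcks probe at 1162 was 80.0% G and C and held 7 alanine codons among 20 in an open frame, and MARCKS is named for its alanine content. The probes at 1979 and 2506 were 38.3% and 35.0% G and C and had a stop codon in every forward frame, and the probe at 3540 was 35.0% G and C. All 4 lay on the minus strand of chromosome 20, at chr20:41307352-41307411, chr20:41306535-41306594, chr20:41306008-41306067 and chr20:41304974-41305033 (build rn4, as the file headers name it). From the probe nearest the 5′ end to the one nearest the 3′ end was 2378 bases in the transcript and 2378 bases in the genome. The Marcksl1 probe held 9 lysine codons among 20 and read the lysine-rich effector domain that MARCKS and its relative share. The Basp1 probe spanned the start codon and the myristoylated N-terminus. No probe of another gene on the array shared a run of 20 bases with any of the 16.

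All 16 probes were well above background on all 4 arrays, so the filter on dim probes removed none of them. The 75th percentile signal, to which each array was scaled, was 596.3 and 743.7 in the shCM1 arrays and 652.2 and 754.5 in the shCTL arrays. Between 84.0% and 90.4% of gene probes were well above background. No gene spot was saturated, and the brightest member probe had a raw mean signal of at most 11.3% of the saturation value. Cmtr1 itself, the targeted gene, was at -3.46 and -3.53 in shCM1 and at -1.43 and -1.86 in shCTL (log2 signal relative to the 75th percentile, as all levels below). It was thus lower in both shCM1 arrays, with a difference of -1.85 (SE 0.22 without a block, n = 2 arrays per group) and 27.7% of its control level. It passed the blocked fit described next (limma, adjusted p = 1.65e-06).

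Every difference below is shCM1 minus shCTL on the log2 scale. The groups were compared over all 36701 probes kept, with limma and Benjamini-Hochberg adjustment, at a threshold of 0.05. Without a block no member probe passed, nor did any probe of the array, including Cmtr1 (adjusted p = 1.00). At an unadjusted p under 0.05 that fit held 3 member probes and 1110 probes in all. With the slide as a block 5 of the 16 member probes passed, 4 lower and 1 higher, where 5.90% of all probes passed in either direction, 2.69% lower and 3.20% higher. The words rose and fell refer to this slide-blocked fit. Nothing in the labels says that the arrays of a group came from separate litters, so the p-values speak only for these arrays. With so few arrays, each p-value rests largely on a variance that limma borrows from other probes of like intensity. That borrowed part held 14.8 degrees of freedom in the blocked fit and 3.35 without the block. Without its intensity trend no probe of the array passed the blocked fit. In bulk RNA, fewer cells of a type and less RNA per cell cannot be told apart.

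**Figure D1:**
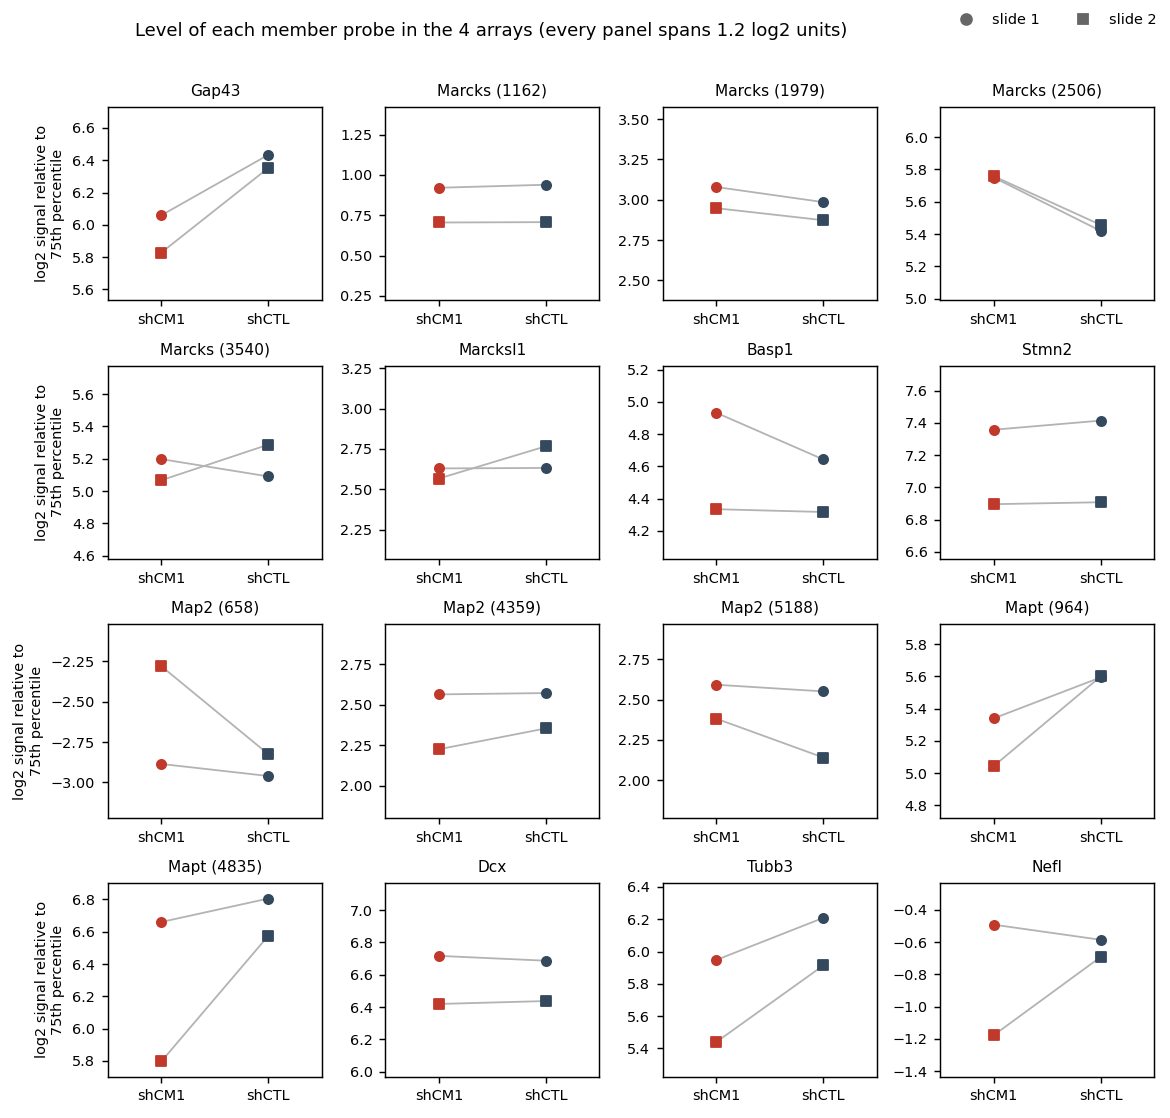
Level of each of the 16 member probes in the 4 arrays, as log2 signal relative to the array's 75th percentile, with shCM1 left and shCTL right in every panel. Circles are slide 1 and squares slide 2, lines join the arrays of a slide, and numbers in brackets are probe positions in the transcript. Gap43, both Mapt probes and Tubb3 were lower in shCM1 on both slides, and the Marcks probe at 2506 was higher on both.

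Gap43, the growth cone protein of the list, fell to 73.2% of its control level. Its level was 6.06 and 5.83 in the shCM1 arrays, against 6.43 and 6.35 in the shCTL arrays. The groups did not overlap, and the difference was -0.37 on slide 1 and -0.52 on slide 2. The mean difference was -0.45 (SE 0.14 without the block, 0.075 with it, n = 2 arrays per group), with limma's adjusted p = 0.00215 in the blocked fit. The 95% interval of the difference was -0.79 to -0.11 without the block and -0.61 to -0.29 with it.

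The Gap43 probe, probe A_42_P833045 at chr11:60083891-60083950 of rn4, was spotted 10 times on each array, which gives a measure of the spotting and scanning error that single spots lack. Its spots used, with the marked ones left out, ran from 37011 to 43254 signal units in shCM1 replicate 1, and from 40625 to 46687 in shCM1 replicate 2. In shCTL they ran from 52877 to 61853 in replicate 1 and from 58776 to 70824 in replicate 2. Thus the brightest spot of either shCM1 array lay below the dimmest spot of either shCTL array, before any scaling. The coefficient of variation over spots was 5.72% and 4.97% in shCM1 and 4.87% and 6.23% in shCTL. In all, 9 spots carried an outlier mark, and the difference was -0.45 with them kept as well.

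**Figure D2:**
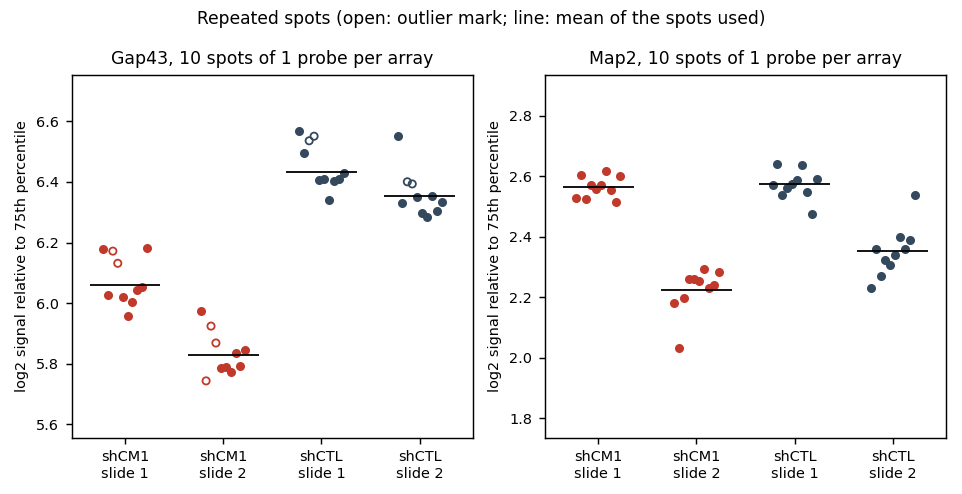
The 10 spots of the Gap43 probe (left) and of the Map2 probe at 4359 (right) on each array, as log2 signal relative to the array's 75th percentile, with the shCM1 arrays left of the shCTL arrays. Open points carried an outlier mark and lines are the mean of the spots used. The Gap43 spots of the groups did not overlap, and the Map2 spots of the groups overlapped.

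The 4 Marcks probes did not give the same difference, and the contrast between them was not tested. The probe at 2506 (A_44_P386164) rose, with a level of 5.75 and 5.76 in shCM1, against 5.42 and 5.46 in shCTL. Its groups did not overlap, and the difference was 0.33 and 0.30 within the slides. The mean of 0.32 (SE 0.12 without the block) corresponds to 125% of control (blocked limma, adjusted p = 0.0205).

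None of the other 3 Marcks probes passed. The probe at 1162, in the alanine-rich coding stretch, was at 0.92 and 0.71 in shCM1 and at 0.94 and 0.71 in shCTL, a difference of -0.010 with a blocked 95% interval of -0.22 to 0.20. The probe at 1979 was at 3.08 and 2.95 in shCM1 and at 2.99 and 2.87 in shCTL, a difference of 0.084 with an interval of -0.096 to 0.26. Its sign was the same on both slides, 0.094 and 0.075, as for the probe at 2506. The probe at 3540, nearest the 3′ end, was at 5.20 and 5.07 in shCM1 and at 5.09 and 5.29 in shCTL. Its slides went opposite ways, 0.11 and -0.22, with a mean of -0.057 and an interval of -0.24 to 0.13.

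The ratio of 2 probes on the same array does not depend on a single factor applied to that array, such as the 75th percentile, although quantile, loess and normexp processing can move it. The log2 ratio of the Marcks probe at 2506 to that at 1979 was 2.67 and 2.81 in shCM1, against 2.43 and 2.58 in shCTL. These did not overlap, and the difference was 0.24 and 0.23 within the slides. The ratio of the probe at 3540 to that at 2506 was -0.55 and -0.69 in shCM1, against -0.33 and -0.17 in shCTL. These did not overlap either, with a difference of -0.37. The ratios of the probe at 2506 to each of the other 3 kept the groups apart under all 6 scalings described below. These 3 ratios share the probe at 2506, which had passed, and all scalings use the same arrays. How often such ratios keep the groups apart over other genes was not counted. Over single probes the groups did not overlap for 31.8%. The 75th percentile and the array median give the same ratios by construction, so they count as 1 check. Between the probes at 1979 and 1162 the ratios were 2.16 and 2.24 in shCM1 and 2.05 and 2.17 in shCTL, and overlapped. With 2 arrays against 2, an exact two-sided permutation test of such a ratio cannot go below 0.333. Averaged over its 4 probes Marcks had a difference of 0.08, close to the median of 0.08 over all probes kept. That mean does not show the spread between the probes.

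**Figure D3:**
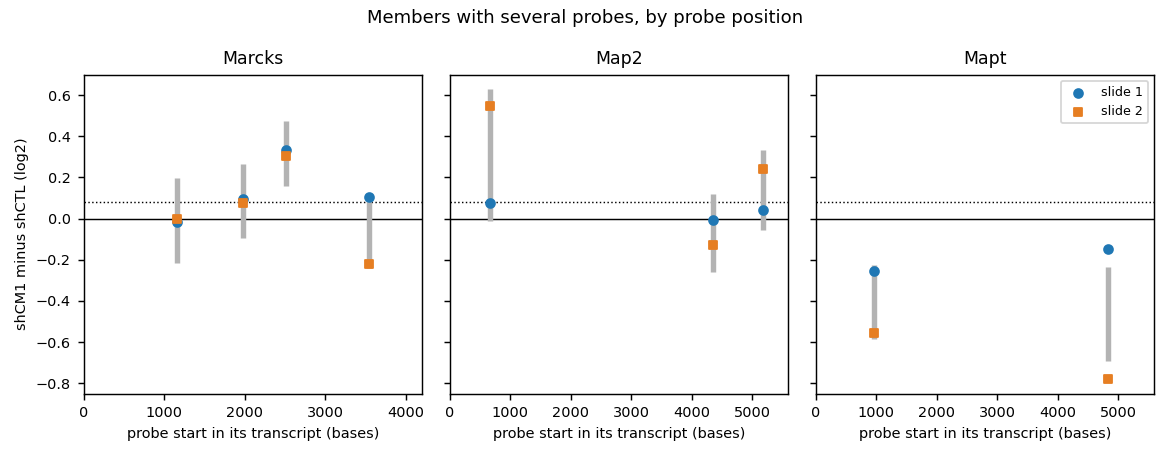
Difference of each probe of Marcks, Map2 and Mapt (y axis, shCM1 minus shCTL, log2) by the position of the probe in its transcript (x axis, bases). Circles are slide 1, squares slide 2, grey bars the 95% interval of the blocked fit and the dotted line the median of all probes kept. The Marcks probe at 2506 stood at 0.33 and 0.30 while its neighbours lay between -0.22 and 0.11, and both Mapt probes were below 0 on both slides.

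Marcksl1, the smaller relative of Marcks, and Basp1 did not pass. Marcksl1 was at 2.63 and 2.57 in shCM1, against 2.63 and 2.77 in shCTL. The groups did not overlap, but slide 1 showed a difference of -0.0028 and slide 2 of -0.20. Its blocked interval ran from -0.29 to 0.090. Basp1 was at 4.93 and 4.33 in shCM1, against 4.64 and 4.32 in shCTL, and the groups overlapped. The difference was 0.29 on slide 1 and 0.017 on slide 2, with a mean of 0.15 and an interval of -0.028 to 0.33. Basp1 was therefore on the other side of 0 from Gap43, whose product it acts beside at the growth cone membrane, and the difference between the genes was not tested.

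Among the mRNAs of proteins that act on microtubules, both probes of Mapt were lower. The Mapt probe at 964 was at 5.34 and 5.04 in shCM1, against 5.59 and 5.60 in shCTL. Its groups did not overlap, and it fell to 75.5% of control, with a difference of -0.41 (SE 0.15 without the block; blocked limma, adjusted p = 0.00984). The Mapt probe at 4835 (chr10:93508449-93508508 of rn4), further 3′, was at 6.66 and 5.80 in shCM1, against 6.81 and 6.58 in shCTL. This probe fell to 72.6% of control (difference -0.46, SE 0.30 without the block; blocked limma, adjusted p = 0.0190), but its groups overlapped, since shCM1 on slide 1 was above shCTL on slide 2.

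Both Mapt probes differed by less on slide 1 than on slide 2. The probe at 964 had -0.25 and -0.56 within the slides, and the probe at 4835 had -0.15 and -0.78. Without shCM1 replicate 2 the probe at 964 had -0.26 and that at 4835 had -0.03, and without shCM1 replicate 1 they had -0.55 and -0.89. Fits with 1 array left out, here and below, had no block. They leave the slides unequal between the groups, so a difference between slides enters these values. The log2 ratio of the probe at 4835 to that at 964 was 1.32 and 0.75 in shCM1 and 1.21 and 0.98 in shCTL, and overlapped. As the slide is also the scan and the replicate number, these 3 cannot be told apart.

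Map2, the dendritic relative of tau, passed by none of its 3 probes. The probe spotted 10 times, at 4359, was at 2.56 and 2.22 in shCM1, against 2.57 and 2.35 in shCTL. The slides differed more than the groups, and the difference was -0.069 with a blocked interval of -0.26 to 0.12. Its spots ran from 3040 to 3657 signal units over both shCM1 arrays and from 3542 to 4382 over both shCTL arrays.

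The Map2 probe at 5188, which reads a microtubule-binding repeat, was at 2.59 and 2.38 in shCM1, against 2.55 and 2.14 in shCTL. Its difference was 0.14, with an interval of -0.053 to 0.34. The log2 ratio of this probe to the one at 4359 was 0.028 and 0.16 in shCM1, against -0.022 and -0.21 in shCTL, and did not overlap. That ratio differed by 0.050 on slide 1 and by 0.37 on slide 2. The ratios of either probe to the Map2 probe at 658 overlapped. The dim Map2 probe at 658, drawn from a predicted variant, had signals of 80.7 and 153.0 in shCM1 and 83.8 and 106.4 in shCTL. Its difference was 0.31, with 0.075 and 0.55 within the slides and a blocked interval of -0.0092 to 0.63. The Map2 probes thus lay on both sides of 0, and the contrast between Map2 and Mapt was not tested.

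Stmn2 and Dcx, whose products are abundant in young neurons, did not pass under any of the 6 scalings. Stmn2 was at 7.36 and 6.90 in shCM1, against 7.41 and 6.91 in shCTL. Its difference was -0.034, with a blocked interval of -0.18 to 0.11. Dcx was at 6.72 and 6.42 in shCM1, against 6.69 and 6.44 in shCTL. Its difference was 0.0060, with an interval of -0.15 to 0.16. For both genes the slides lay further apart than the groups, and a shift within these intervals was not detectable with 2 arrays a group.

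Of the subunit genes, Tubb3 passed and Nefl did not. Tubb3 (probe at chr19:53751444-53751503 of rn4) was at 5.95 and 5.44 in shCM1, against 6.21 and 5.91 in shCTL. Each shCM1 array was below the shCTL array of its slide, with differences of -0.26 on slide 1 and -0.47 on slide 2, although the levels overlapped across slides. Tubb3 fell to 77.5% of control (difference -0.37, SE 0.21 without the block; blocked limma, adjusted p = 0.0114). In fits without the block, leaving out shCM1 replicate 2 gave -0.11 and leaving out shCM1 replicate 1 gave -0.62. Nefl was at -0.49 and -1.18 in shCM1, against -0.59 and -0.69 in shCTL. Its slides went opposite ways, 0.094 and -0.49, and it did not pass, with a mean of -0.20 and a blocked interval of -0.48 to 0.084.

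**Figure D4:**
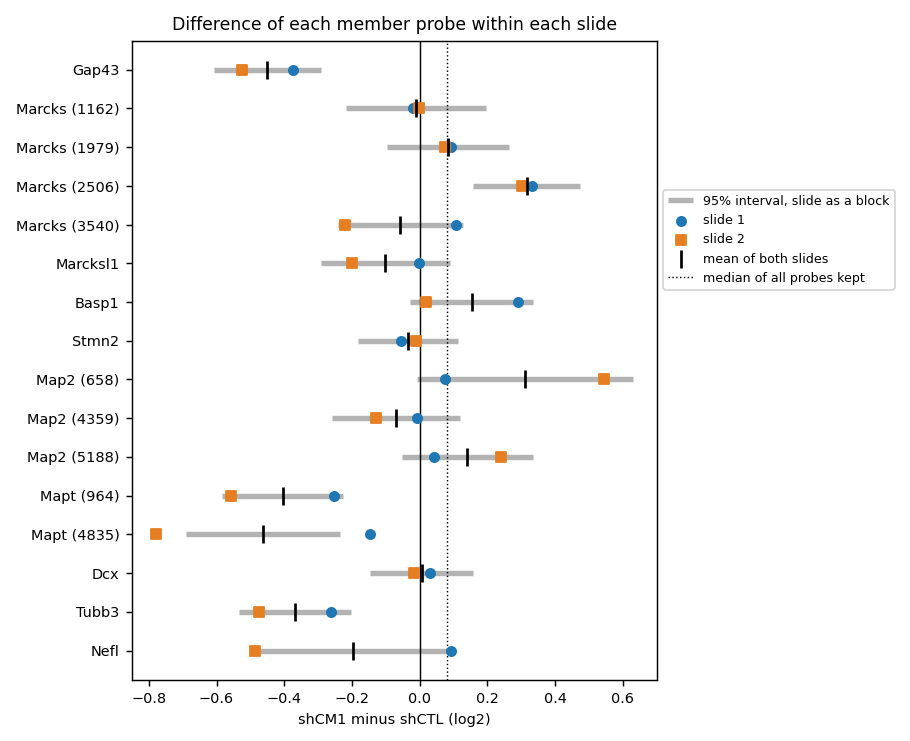
Difference of each member probe (x axis, shCM1 minus shCTL, log2) within slide 1 (circles) and slide 2 (squares), with the mean (black bar) and the 95% interval of the blocked fit (grey). The dotted line is the median of all probes kept, 0.08. Gap43, both Mapt probes and Tubb3 have intervals below 0, and the Marcks probe at 2506 has one above 0.

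Over the 16 probes, 8 were lower within both slides and 5 were higher within both, where 22.6% and 44.2% of all probes were. That split followed the scaling. It was 4 lower and 5 higher with quantile normalization or the authors' values (30.2% and 31.5% of all probes under either). It was 4 and 6 with cyclic loess (30.1% and 31.6% of all probes) and 8 and 5 with normexp (21.7% and 45.7%). With the array median it was 12 and 1 (40.0% and 25.7% of all probes). With the 75th percentile the probes whose slides went opposite ways were Marcks at 3540, Dcx and Nefl. None was at least 1.5-fold apart within both slides in either direction, where 0.599% of all probes were lower and 1.67% higher by that much. The groups did not overlap for 4 of the 16 probes, Gap43, Mapt at 964 and Marcksl1, which were lower, and Marcks at 2506, which was higher. Over all probes the groups did not overlap for 31.8%, so that this share is no result about the members. The median difference of the 16 probes was -0.046, beside 0.08 over all probes. It was 0.0060 beside 0.0066 with quantile normalization, 0.0065 beside 0.0066 in the authors' table and 0.018 beside 0.0072 with cyclic loess. With normexp it was -0.059 beside 0.059, and with the array median -0.17 beside -0.043. The lean to lower values thus followed the scaling and is no result about the members. Relative to the 75th-percentile median of all probes, Gap43 had -0.53, Mapt -0.49 and -0.54, Tubb3 -0.45 and the Marcks probe at 2506 had 0.24.

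Which of these calls held depended on the scaling. Gap43 passed the blocked fit under all 6 scalings tried, the 75th percentile, quantile normalization, cyclic loess, normexp, the authors' table and the array median, with differences from -0.57 to -0.36. The Marcks probe at 2506 passed under 5 of the 6, with differences from 0.32 to 0.40, but not with the array median, where it had 0.19 (blocked limma, adjusted p = 0.121). The blocked fit with the array median was added after the other results were seen. Both Mapt probes and Tubb3 passed under 4 of the 6. Over all probes 3.69% passed after quantile normalization, 2.65% after cyclic loess, 3.87% with normexp, 3.01% in the authors' table and 6.50% with the array median. The split of those calls moved too, from 1176 higher and 988 lower with the 75th percentile to 545 higher and 808 lower with quantile normalization, 369 and 603 with cyclic loess, 635 and 787 with normexp, 427 and 676 by the authors' values, and 332 and 2053 with the array median. After cyclic loess limma's adjusted p was 0.0683 and 0.123 for the Mapt probes at 964 and 4835 and 0.0773 for Tubb3. With the authors' values the same adjusted p was 0.0689, 0.0650 and 0.0537. No member passed the blocked fit over all 41012 probes without the filter on dim probes (Gap43 adjusted p = 0.0679), or without the intensity trend in limma's variance prior (Gap43 adjusted p = 0.245).

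**Figure D5:**
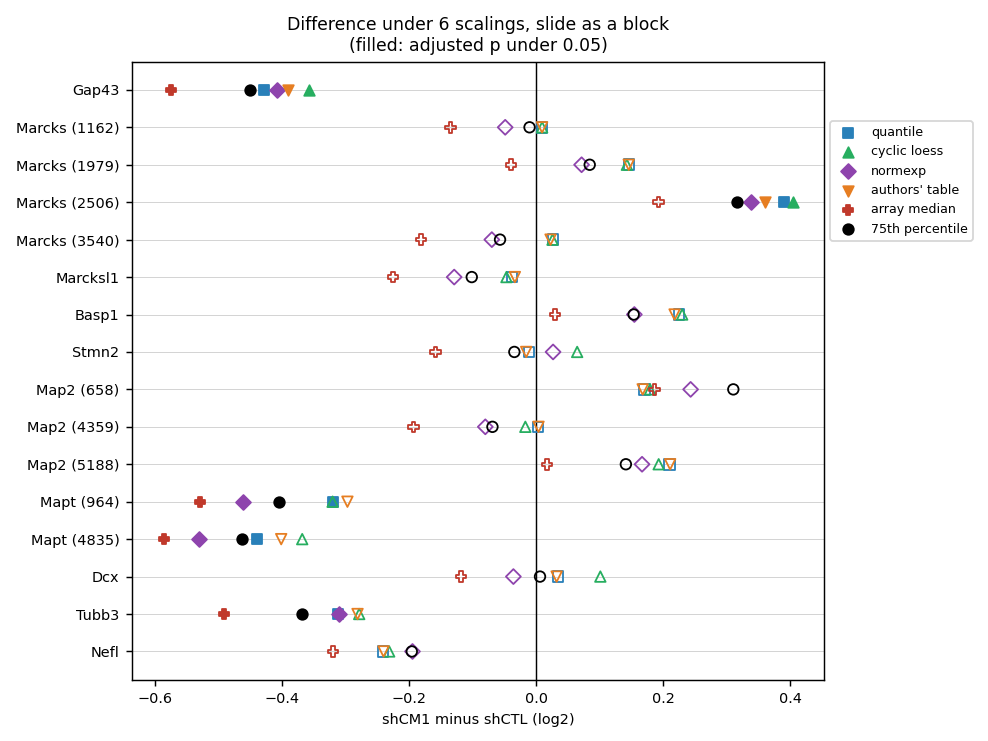
Difference of each member probe (x axis, shCM1 minus shCTL, log2) in the slide-blocked fit under 6 scalings, with filled symbols where the adjusted p was under 0.05. Gap43 is filled under all 6, the Marcks probe at 2506 under 5, and Tubb3 and both Mapt probes under 4 of them.

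A wider list of 45 genes of the neuronal cytoskeleton and growth cone was set beside the members, and 41 of them had a gene name on the array, with 72 probes kept. With the slide as a block 3 of the 72 probes passed, 1 higher and 2 lower, or 4.17%, near the 5.90% of all probes. At an unadjusted p under 0.05 the blocked fit held 14 of the 72, 9 lower and 5 higher, where 22.5% of all probes were past that threshold. Their median difference was -0.0083, beside 0.08 over all probes, and 27 probes were lower within both slides and 19 higher (37.5% and 26.4%, where 22.6% and 44.2% of all probes were). With cyclic loess 23 were lower and 28 higher, and with the array median 50 lower and 5 higher, so this split followed the scaling as well.

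Add2, which encodes beta-adducin, a protein that caps actin filaments and joins them to spectrin, fell by its probe at 2186. That probe was at 3.42 and 2.58 in shCM1, against 3.77 and 3.48 in shCTL, with a difference of -0.62 (SE 0.30 without the block; blocked limma, adjusted p = 0.00288). Without shCM1 replicate 2 it had -0.21, and without shCM1 replicate 1 it had -1.04, both in fits without the block. The second probe of Add2, at 3175, had -0.25 and did not pass. Crmp1, a collapsin response mediator protein that acts in growth cone guidance, fell, at 2.34 and 2.10 in shCM1, against 2.71 and 2.48 in shCTL. Its difference was -0.37 within both slides (blocked limma, adjusted p = 0.0208), and it passed under 3 of the 6 scalings.

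Map1b, a microtubule-associated protein of growing axons, rose by 1 of its 5 probes, the one at 448. That probe was at 3.43 and 3.02 in shCM1, against 2.94 and 2.75 in shCTL, with a difference of 0.38 (SE 0.19 without the block; blocked limma, adjusted p = 0.0194). Of the others on the same transcript, the probe at 7248 had a difference of 0.050, that at 9688 one of 0.14 and that at 11672 one of -0.0037. The fifth, from another database sequence that maps to the opposite strand, had -0.0029. Without shCM1 replicate 1 the probe at 448 had 0.18, and without shCM1 replicate 2 it had 0.59, both in fits without the block. With the array median it had 0.26 and did not pass (blocked limma, adjusted p = 0.106). The neurofilament chains Nefm and Nefh lay on the same side as the mean of Nefl but did not pass. Nefm had -0.22 and -0.27 within the slides (adjusted p = 0.100, limma with the block) and Nefh had -0.40 and -0.70 (0.0712). The Nefh probe was dim, with signals of 44.0 and 40.4 in shCM1 and 63.6 and 66.7 in shCTL. The slides went opposite ways for Ina, 0.086 and -0.45, and for Prph, 0.18 and -0.11. Their means were -0.18 and 0.033, and neither passed.

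Other markers moved with the groups, and their part in the differences above was not tested. The marker counts here and in the next paragraph are those with the 75th percentile. Over all probes kept, 44.2% were higher and 22.6% lower within both slides, while 3.20% rose and 2.69% fell. Of 10 kept probes of inhibitory neuron markers 9 were higher within both slides and 6 rose, and their summed level was 215.8 and 106.2 times the 75th percentile in shCM1, against 181.5 and 90.3 in shCTL. Most of that sum was the 1 probe of Sst, which did not pass, and without it the sum was 32.6 and 24.1 in shCM1, against 25.9 and 18.6 in shCTL. Of 9 probes of excitatory neuron markers 3 were higher and 3 lower within both slides, and 2 fell, among them Neurod6 with -0.62. Their summed level was 30.6 and 29.5 in shCM1, against 35.6 and 33.7 in shCTL. Of 16 kept microglial probes 15 were higher within both slides and 5 rose, with summed levels of 3.96 and 2.88 in shCM1, against 2.47 and 2.09 in shCTL. Lyz2 among them had 1.45 and Aif1 had 1.30. Both probes were dim, with Lyz2 at -3.51 and -3.46 and Aif1 at -4.91 and -5.42 in shCTL.

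Pan-neuronal markers had 16 probes, all kept, and Stmn2 and Tubb3 among them are also members. Of these 6 were higher and 4 lower within both slides, and Tubb3 was the 1 that fell. The 6 were 4 probes of Elavl4, an RNA-binding protein of neurons, with differences from 0.19 to 0.38, and 1 probe each of Elavl3 (0.14) and Syt1 (0.23). The other 3 lower ones were Stmn2, Rbfox3 (-0.15) and 1 of 2 probes of Snap25 (-0.096). Their summed level was 425.3 and 333.6 in shCM1, against 430.7 and 351.4 in shCTL. Astrocyte markers had 0 of 12 probes past the test. Among oligodendrocyte lineage markers 2 of 11 rose and 1 fell, among progenitor markers 3 of 12 rose and 0 fell, and among fibroblast and endothelial markers 2 of 11 rose and 1 fell. The oligodendrocyte lineage probes summed to 45.8 and 57.8 in shCM1 and to 50.9 and 59.1 in shCTL, and the progenitor probes to 48.0 and 57.2 in shCM1 and to 47.5 and 41.5 in shCTL. The astrocyte probes summed to 145.2 and 145.0 in shCM1 and to 133.3 and 142.6 in shCTL, and the fibroblast and endothelial probes to 2.83 and 3.04 in shCM1 and to 2.58 and 2.53 in shCTL.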

How the data were processed

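The deposited scanner files hold linear spot intensity, background-corrected and detrended by Agilent Feature Extraction 10.7.3.1 and not normalized between arrays, per the file headers. The authors' deposited value table, also intensity, was used only as an alternative, and its normalization is not stated in those headers or in the labels. Outlier spots (86 to 98 gene spots per array) were dropped before the remaining spots of each probe were averaged. Levels are log2 values minus the 75th percentile of their array. A probe stayed in (36701 did) if 2 or more arrays had it well above background, and probes were never merged into genes. The comparison used limma 3.58.1 under R 4.3.3 (eBayes with an intensity trend, two-sided, Benjamini-Hochberg over probes), without and with the slide as a block, and the code was tested on simulated data. Same-numbered arrays shared a slide, per the file headers, and their deviations from group means correlated at 0.713 across probes. Members and lists were chosen with earlier results of these data known. Named genes were every member, Cmtr1, probes of the wider list past the blocked fit, and up to 2 examples per marker list. The genes Nefm, Nefh, Ina and Prph, the second Add2 probe, the other Map1b probes and the examples of the pan-neuronal list were named outside that rule, after their values were seen. The sequence of 1 probe and the values of 1 marker gene are not reported here.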

Additional observations from a re-analysis of the deposited data

How the results depend on the processing

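No alternative without the block called a member, and each result below is a count or a log2 difference. With the replicate block (the slide) 5 member probes, 2164 of all probes and 3 of the wider list passed. With the block, member counts were 5 after quantile normalization, 2 after cyclic loess, 5 with normexp, 2 in the authors' table, 4 with the array median (a fit added after seeing the data), 5 with the filter on all 4 arrays, and 0 without the filter or without the intensity trend. The counts over all probes in the same order were 1353, 972, 1422, 1103, 2385, 2136, 355 and 0, and over the wider list 4, 3, 3, 3, 10, 3, 0 and 0. Cmtr1 had -1.85 and passed with the block, as it did with -1.97 under both quantile normalization and cyclic loess, -1.22 with normexp, -1.98 in the authors' table or with the array median and -1.85 under either filter. Its adjusted limma p was 0.242 without the intensity trend.

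The member median was -0.046, against 0.018 after cyclic loess (with or without the block). It was -0.17 with the array median in place of the 75th percentile (with or without the block). When 1 array was left out, in fits without the block, it ran from -0.14 to 0.10. The array median moved the median of all probes from 0.08 to -0.04 and every probe by the same amount.

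Signs reversed for 9 of the 19 named probes, in 40 of 418 comparisons, and none of them had passed the blocked fit. Whether or not the slide was a block, Marcks at 1162 had 0.0090 with quantile normalization, 0.0094 with cyclic loess and 0.0093 by the authors' values, and Marcks at 3540 had 0.026, 0.026 and 0.023. Map2 at 4359 had 0.00 after quantile normalization (0.00293) and in the authors' table (0.00371), Stmn2 had 0.065 after cyclic loess and 0.027 with normexp, and Dcx had -0.036 with normexp and -0.12 with the array median, where Marcks at 1979 had -0.040. With 1 array left out the ranges were -0.13 to 0.11 for Marcks at 1162, -0.16 to 0.042 for Marcks at 3540, -0.15 to 0.45 for Basp1, -0.29 to 0.22 for Stmn2, -0.24 to 0.10 for Map2 at 4359, -0.064 to 0.35 for Map2 at 5188, -0.14 to 0.16 for Dcx and -0.54 to 0.15 for Nefl. The fits with 1 array left out had no block, so the slides were unequal between the groups and a difference between slides entered these ranges. The cause of the reversals under other scalings was not tested. The number of arrays limits every interval.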
